A study of Mus musculus with 12 samples.

Results

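The comparison described here is between the livers of mice after 1 month of recovery in clean air and the livers of mice taken at the end of 4 months of secondhand smoke (SHS) exposure. The arrays were chosen by their source labels: 4 recovery arrays (SHS4m+1m recovery, replicates 70 to 73) and 4 end-of-exposure arrays (SHS4m, replicates 66 to 69), which are 8 of the 12 arrays of the study. The other 4 arrays (replicates 1 to 4) came from sham-exposed controls that breathed filtered air, and their levels are given beside the results. All mice were adult C57BL/6 males fed a standard diet with free access to food and water. Exposed mice breathed a machine-made mixture of sidestream and mainstream cigarette smoke with the whole body. Each array held liver RNA of 1 mouse. The recovery mice were 1 month older than the SHS4m mice when their livers were taken, and the labels do not give the age subgroup of the 4 control arrays, so the month of age and the month in clean air cannot be told apart. The hour of the day and the feeding state at which livers were taken are not given in the sources used here.

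The liver meets inhaled chemicals through the blood and answers them with receptor-driven programs. The receptors CAR and PXR turn on cytochromes P450 of the 2b, 2c and 3a families, the aryl hydrocarbon receptor turns on Cyp1a enzymes, and the factor NRF2 turns on glutathione transferases. Metallothioneins bind zinc and cadmium and are made when metal, glucocorticoid or inflammatory signals reach the hepatocyte. The same cell also switches between a fasting state, in which it makes glucose from amino acids, and a fed state, in which it makes fatty acids, under the control of insulin, glucagon and glucocorticoids.

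Affymetrix Mouse Genome 430 2.0 arrays were used, on which a probe set reads a transcript, or several related ones, with short probes. Levels are log2 of the array signal after values below 32 were raised to 32, so log2 of 32 is the lowest level, called the floor, and a change that ends there is only partly seen. A probe set is called when its Benjamini-Hochberg adjusted p from limma was under 0.05 over all 45037 probe sets, with differences given as recovery minus SHS4m. In all, 1142 probe sets (2.54%) were called by limma, 593 higher after recovery (1.32%) and 549 lower (1.22%). The 4 recovery values and the 4 SHS4m values did not overlap for 592 of the 593 and 548 of the 549. This largely follows from passing the call and is no separate support. The genes named as the largest falls and rises were also required not to overlap. A 2-fold difference was reached by 153 of the higher and 174 of the lower probe sets, and a 4-fold difference by 22 and 36. At the study's threshold, an unadjusted p under 0.05 with a 2-fold difference, 767 probe sets (1.7%) differed, 350 higher (0.777%) and 417 lower (0.926%). With each gene read by its brightest probe set, 670 of 18193 genes (3.68%) were called, 365 higher (2.01%) and 305 lower (1.68%). For 112 genes more than 1 probe set was called, and for all 112 these pointed the same way. An unadjusted p under 0.05 was reached by 6185 probe sets (13.7%) and 3310 genes (18.2%). The largest difference of any probe set upward was that of 1443147_at, which the annotation table used here does not name and the study lists as Acot1. It was 7.68, 7.09, 6.53 and 6.96 in SHS4m livers and 11.07, 11.06, 10.95 and 10.66 after recovery, without overlap, with controls from the floor to 7.63 (log2 3.87, adjusted p = 0.00758).

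The array of recovery replicate 72 stood apart in RNA quality. Its ratio of 3' to 5' signal was 8.82 for actin and 4.52 for Gapdh, against 3.24 to 4.64 and 2.24 to 2.95 on the other 11 arrays. Between the groups the mean log2 actin ratio differed by 0.25 and the mean log2 Gapdh ratio by 0.27 (exact permutation tests, two-sided, p = 0.6 and 0.257). With 4 arrays per group and replicate 72 far from the rest, these tests cannot show the groups to be alike. Without replicate 72 the actin difference was -0.02. Without this array 699 probe sets were called. The count fell whichever single array was left out, and each such fit also had fewer arrays. It was 584 without recovery replicate 71, 599 without SHS4m replicate 66 and 687 to 705 without any 1 of SHS4m replicates 67 to 69. It was 834 and 794 without recovery replicates 70 and 73, and 945 to 1016 without any 1 control. When only the 8 arrays of the SHS groups were fitted, 680 were called. The defining transcripts of hepatocytes were present at high levels in both groups, and 0 of the 10 hepatocyte markers were called by limma (median difference 0.08, 1 with an unadjusted p under 0.05). In bulk tissue, fewer cells of a type and less RNA per cell cannot be told apart.

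**Figure D1:**
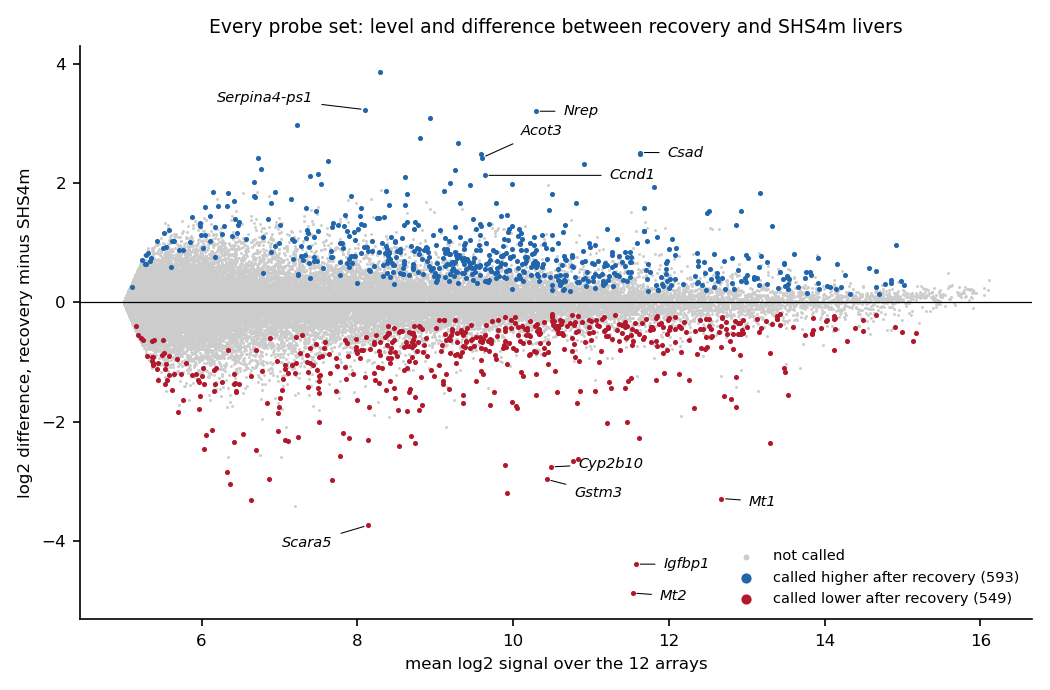
Each point is 1 of the 45037 probe sets, placed by its mean log2 signal over the 12 arrays (x axis) and its log2 difference between recovery and SHS4m livers (y axis, 4 arrays each). Blue points are the 593 called higher after recovery and red points the 549 called lower. Mt2 (-4.87) and Igfbp1 (-4.38) lie farthest below 0, and Nrep (3.20) and Serpina4-ps1 (3.23) are among the farthest above it.

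The largest fall was that of a metallothionein. Mt2 (1428942_at) had log2 levels of 15.19, 14.97, 15.15 and 15.10 in the 4 SHS4m livers and 10.22, 10.39, 10.07 and 10.27 after recovery. In the controls it was 9.56, 10.91, 8.39 and 8.19. All recovery livers thus lay far below all SHS4m livers. They were above control replicates 1, 3 and 4 and below control replicate 2. The difference of -4.87 (standard error 0.498, adjusted p = 0.00221) is a 29.1-fold fall. Its neighbour Mt1 (1422557_s_at) fell 9.74-fold (log2 -3.28, standard error 0.608, adjusted p = 0.0255). The Mt1 levels within each exposed group were tight, 15.28 to 15.51 in SHS4m and 11.98 to 12.32 after recovery, while the controls ran from 9.33 to 12.65. The adjusted p of Mt1 was 0.000127 when only the 8 arrays of the SHS groups were fitted, and up to 0.0673 when any 1 of these 8 arrays was left out of the fit of all 12. A second, dim probe set of Mt1 (1451612_at) had a difference of -2.84 (adjusted p = 0.016). The study lists Mt1 and Mt2 among the genes still raised over controls after recovery, and reported this for Mt1 by RT-qPCR as well. Of the 11 genes in the list of metallothioneins, zinc carriers and their sensor, Mt1 and Mt2 fell and 1, the zinc exporter Slc30a5, rose (log2 0.43, adjusted p = 0.0139). The call of Slc30a5 was lost in the fit of 8 arrays (adjusted p = 0.0608). The zinc importers Slc39a4 and Slc39a14 had differences of -0.54 and -0.52 that did not pass (adjusted p = 0.123 and 0.156), though 1 dimmer probe set of Slc39a14 did (-0.98, adjusted p = 0.0336). Without replicate 72 the list had 1 call in each direction.

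The upstream sequences of both metallothionein genes are shown because these genes moved together and their control through metal response elements is textbook knowledge. They are the 250 bases before the RefSeq start of each gene (build GRCm38.p6), 5′ to 3′ along the gene, at chr8:94178839-94179088 (plus strand) for Mt1 and chr8:94172368-94172617 (plus strand) for Mt2. Capitals mark matches on either strand to the core letters TGCACNC or TGCGCNC of a metal response element, which 21.4% of the 32851 listed promoters hold in a window of this length.
Mt1: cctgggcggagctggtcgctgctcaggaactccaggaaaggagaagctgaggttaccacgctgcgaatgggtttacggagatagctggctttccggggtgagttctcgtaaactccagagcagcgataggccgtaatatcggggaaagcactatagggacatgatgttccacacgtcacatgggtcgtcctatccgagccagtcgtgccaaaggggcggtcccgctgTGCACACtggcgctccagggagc
Mt2: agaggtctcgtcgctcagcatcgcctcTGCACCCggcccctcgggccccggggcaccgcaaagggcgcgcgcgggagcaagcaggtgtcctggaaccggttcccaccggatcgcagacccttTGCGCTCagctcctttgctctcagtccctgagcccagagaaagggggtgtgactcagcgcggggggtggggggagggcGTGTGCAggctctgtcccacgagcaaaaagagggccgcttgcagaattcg
The window of Mt1 holds 1 match and that of Mt2 holds 3. A match is a description of letters and not of a bound site.

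Of 19 measured genes of gluconeogenesis and its fasting signals, 5 were called lower after recovery and 14 were not called. Igfbp1 (1418918_at), a secreted protein that binds insulin-like growth factors and is made when insulin is low, had levels of 14.21, 14.39, 14.68 and 13.52 in SHS4m livers and 8.63, 9.04, 11.34 and 10.26 after recovery. The groups did not overlap, and the recovery livers spread more widely than the SHS4m livers. The fall was 20.9-fold (log2 -4.38, standard error 0.659, adjusted p = 0.00995), and the controls lay between 9.74 and 11.93. G6pc, the last enzyme of glucose release, was 14.01, 13.76, 13.57 and 13.85 in SHS4m livers and 12.93, 12.14, 12.12 and 11.02 after recovery, with no overlap. It fell 3.36-fold (log2 -1.75, standard error 0.335, adjusted p = 0.0288). The call of G6pc was lost without any 1 of the SHS4m replicates 66 to 69 or recovery replicates 71 or 72 (adjusted p up to 0.0773) and in the fit of 8 arrays (0.0988). Ppargc1a, the coactivator that drives the program, fell 3.21-fold (log2 -1.68, adjusted p = 0.00886), and all 5 of its probe sets were called lower. The list had no call upward and a median difference of -0.53, its 5 falling members standing against 305 of 18193 genes called lower (1.68%) and a median of 0 over all genes. The other called members were the aminotransferases Got1 and Gpt. Pck1 and Tat, a carboxykinase and an aminotransferase of the same program, had differences of -0.63 and -1.03 that did not pass (adjusted p = 0.192 and 0.0699), although a dimmer probe set of Pck1 (1439617_s_at) was called lower (-1.71, adjusted p = 0.00488). Without replicate 72 the list had 4 members called lower, and 3 in the fit of 8 arrays.

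Igfbp1 and G6pc are repressed by insulin through promoter elements whose core letters are CAAAACA. The 250 bases before the RefSeq start of each (GRCm38.p6, 5′ to 3′) are given with matches to these letters on either strand in capitals, at chr11:7197537-7197786 (plus strand) for Igfbp1 and chr11:101367466-101367715 (plus strand) for G6pc. The letters occur in 5.56% of the listed promoters.
Igfbp1: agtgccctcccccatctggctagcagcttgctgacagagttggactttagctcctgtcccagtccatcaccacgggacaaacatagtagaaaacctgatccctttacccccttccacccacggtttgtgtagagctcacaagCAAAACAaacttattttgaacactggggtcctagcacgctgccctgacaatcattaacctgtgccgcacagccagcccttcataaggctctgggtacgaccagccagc
G6pc: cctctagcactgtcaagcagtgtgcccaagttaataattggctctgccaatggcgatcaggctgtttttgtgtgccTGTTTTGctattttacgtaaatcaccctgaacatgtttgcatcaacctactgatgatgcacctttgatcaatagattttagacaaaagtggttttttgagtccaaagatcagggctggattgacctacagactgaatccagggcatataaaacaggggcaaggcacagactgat
Each window holds 1 match, in the forward direction in Igfbp1 and on the opposite strand in G6pc.

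Several xenobiotic-metabolising enzymes were also lower after recovery, while others rose or were not called. Gstm3 (1427473_at), a mu-class glutathione transferase, had the smallest adjusted p of the genes named here, with levels of 12.52, 12.19, 12.56 and 12.45 in SHS4m livers and 9.40, 9.58, 9.25 and 9.62 after recovery. The recovery livers lay on both sides of the control levels of 9.33 to 9.52. The fall was 7.8-fold (log2 -2.96, standard error 0.1, adjusted p = 3.88e-06). Cyp2b10 (1422257_s_at), the classical target of CAR, was 12.88, 12.72, 12.81 and 12.95 in SHS4m livers and 10.52, 10.15, 9.75 and 9.92 after recovery. All recovery livers stood below all SHS4m livers and above all controls, whose highest value was 9.19. The fall from SHS4m was 6.75-fold (log2 -2.75, adjusted p = 0.00102), and recovery mice remained 1.55 above controls (adjusted p = 0.0114). Probe sets marked s or x can read near-identical relatives of Cyp2b10 and the Gstm genes, and the share of such relatives in their signal was not tested.

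By list, 7 of 25 NRF2 targets fell and 0 rose (median -0.38), 4 of 17 CAR and PXR target enzymes fell and 0 rose (median -0.42), and 3 of 9 genes of the aryl hydrocarbon receptor pathway fell and 0 rose (median -0.35). Among all genes, 1.68% were called lower and 2.01% higher. The mu-class transferases Gstm2 (log2 -2.01), Gstm4 (-0.84) and Gstm1 (-0.52) fell beside Gstm3, with adjusted p from 0.000526 to 0.00526. Over the 25 NRF2 targets 19 differences were below 0 and 6 above. Gclc, Gclm and Txnrd1 had differences of 0.08, -0.01 and -0.01 by their brightest probe sets and were not called. Hmox1 (-1.42, adjusted p = 0.0747) and Nfe2l2, which encodes NRF2 (0.66, adjusted p = 0.186), did not pass either. Cbr3, a carbonyl reductase, fell by 2.2 on the log2 scale (adjusted p = 0.0213), a call lost without SHS4m replicates 67 or 68 or recovery replicate 72 (adjusted p up to 0.0583). Cyp2c55 fell 3.39-fold (log2 -1.76, adjusted p = 0.000394) and its recovery levels of 9.05 to 9.53 all lay below the control levels of 9.62 to 9.85. Cyp3a13 fell by 0.87 on the log2 scale (adjusted p = 0.0044), whereas Cyp3a11 and Cyp2c29, which are among the most abundant P450s, had differences of 0.16 and -0.07 (adjusted p = 0.677 and 0.684). Cyp1a2 fell by 0.50 on the log2 scale (adjusted p = 0.00381). Its partner Cyp1a1 fell by 2.25 (adjusted p = 0.0255), ending at the floor in recovery replicate 72. The call of Cyp1a1 was lost without SHS4m replicates 66, 67 or 69 (adjusted p up to 0.0691) and in the fit of 8 arrays (0.0912). The call of the quinone reductase Nqo1 (log2 -0.92, adjusted p = 0.0492) was lost without control replicates 1 or 4, SHS4m replicates 66 to 68 or any 1 recovery array (up to 0.128), and in the fit of 8 arrays (0.0573). Without replicate 72, 5 NRF2 targets, 5 CAR and PXR targets and 2 genes of the aryl hydrocarbon receptor pathway were called lower, with 1 of the last list higher. In the fit of 8 arrays, and without SHS4m replicates 66 or 67, 1 gene of the aryl hydrocarbon receptor pathway was called lower. The conjugating enzymes of phase II went both ways, with 2 of 21 called higher and 3 lower (median -0.07). The sulfotransferase Sult1c2 rose by 1.41 on the log2 scale (adjusted p = 0.00418) and the glucuronosyltransferase Ugt2a3 by 0.26 (adjusted p = 0.0221). The methyltransferase Nnmt fell by 1.56 (adjusted p = 0.00686), as did the sulfotransferases Sult1e1 (-1.30, adjusted p = 0.0178, at the floor in 3 of 4 recovery livers) and Sult1a1 (-0.29, adjusted p = 0.0247). The calls of Ugt2a3 and Sult1a1 were each lost without some single SHS4m or recovery arrays (up to 0.0587 and 0.0669).

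In the list of amino acid catabolism and the urea cycle, of 40 measured genes, 11 fell and 0 rose (median -0.20), and 9 fell without replicate 72. Among all genes, 1.68% were called lower. The fallen members Got1 and Gpt are also counted in the gluconeogenesis list. Got1, the cytosolic aspartate aminotransferase, was 13.08, 12.97, 13.01 and 13.09 in SHS4m livers and 11.02, 11.21, 9.99 and 10.82 after recovery. The SHS4m livers were close to each other and above every recovery and every control liver. The fall of Got1 was 4.85-fold (log2 -2.28, standard error 0.238, adjusted p = 0.00221). Asns, which makes asparagine, fell by 2.4 on the log2 scale by its brightest probe set (1451095_at, adjusted p = 0.0131). Its dimmer probe set, which ranked among the largest falls (1433966_x_at, log2 -2.98, adjusted p = 0.0394), lost its call without control replicates 2 or 3, any 1 of the SHS4m arrays or recovery replicates 70 to 72 (up to 0.0988). Slc1a4, a carrier of neutral amino acids chosen after its values were seen, fell by 2.19 on the log2 scale (adjusted p = 0.00247). Cth, which makes cysteine, fell 1.56-fold (adjusted p = 0.0154). The mitochondrial ornithine carrier Slc25a15 (log2 -0.44, adjusted p = 0.0192) did not pass in the fit of 8 arrays (0.0686). The calls of 3 further members were lost in some fits that left out 1 array. Mat1a, which makes S-adenosylmethionine (-0.43, adjusted p = 0.0167), lost its call without recovery replicate 71 (0.0521). The urea cycle enzyme Asl (-0.64, adjusted p = 0.0398) lost its call without control replicate 3 or any 1 SHS4m or recovery array (up to 0.104). Nags, which makes the activator of the cycle (-0.59, adjusted p = 0.0358), lost its call without control replicates 2 or 4, SHS4m replicates 66 to 68 or any 1 recovery array (up to 0.0907), and in the fit of 8 arrays (0.0756). With a floor at each array's 25th percentile, 6 of the 40 were called lower, as with no floor.

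Of the 33 genes of the acute phase response and the 21 genes that glucocorticoids induce, 9 and 5 were called lower, against 1.68% of all genes. Orm2 (1420438_at), an acute phase protein of the orosomucoid family, was 13.15, 12.05, 11.87 and 13.15 in SHS4m livers and 10.57, 10.13, 9.48 and 9.44 after recovery. SHS4m replicates 66 and 69 were the higher pair for Orm2, and the same pair was the higher for Orm3 and Lcn2. Orm2 fell 6.28-fold (log2 -2.65, adjusted p = 0.0117) and Orm3 5.95-fold (log2 -2.57, adjusted p = 0.0154). Lcn2, which binds bacterial iron carriers, fell by 3.19 on the log2 scale (adjusted p = 0.0391). The call of Lcn2 was lost without control replicates 1, 2 or 4, SHS4m replicates 66, 68 or 69 or recovery replicates 71 to 73 (up to 0.102), and in the fit of 8 arrays (0.0838). Il1r1, the receptor of interleukin 1, fell 2.93-fold (adjusted p = 0.00929) and Stat3, the factor through which interleukin 6 acts, 1.56-fold (adjusted p = 0.00566). In the list of the acute phase response 9 of 33 genes fell and 0 rose, with a median of -0.17. That count was 6 without SHS4m replicates 66, 68 or 69 or recovery replicates 71, 72 or 73, and 5 in the fit of 8 arrays.

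Of 21 glucocorticoid-induced genes and their receptor 5 fell and 0 rose (median -0.57), and 3 fell without SHS4m replicates 66, 68 or 69, without recovery replicates 71, 72 or 73, or in the fit of 8 arrays. Among all genes, 1.68% were called lower. Of the fallen members, Lcn2 is also counted in the acute phase list and Sult1e1 in the phase II list. Fam107a, a stress-inducible actin-binding protein, fell 5.47-fold (log2 -2.45, adjusted p = 0.00481), from 6.87 to 8.28 in SHS4m livers to between the floor and 5.86 after recovery. Cebpd, a transcription factor of the same program, fell 2.5-fold (adjusted p = 0.00714). The zinc finger factor Zbtb16 fell 3-fold (log2 -1.58, adjusted p = 0.0296), a call lost without any 1 of the SHS4m replicates 66 to 69 or recovery replicates 71 to 73 (up to 0.0784) and in the fit of 8 arrays (0.0754). Cdkn1a, the cell cycle inhibitor p21 and a target of p53, fell 4.83-fold (log2 -2.27, adjusted p = 0.0098). With Trp53inp1, which fell 3.42-fold (adjusted p = 0.0157), it was 1 of 2 called genes among 21 of the p53 list (median -0.06).

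Several of the largest falls lay outside these programs. Scara5 (1451204_at), a receptor for ferritin, was 10.34, 10.17, 9.96 and 10.92 in SHS4m livers and 6.63, 5.97, 6.23 and 7.62 after recovery. It fell 13.3-fold (log2 -3.73, standard error 0.388, adjusted p = 0.00221) and was the only member called among 22 genes of iron handling, while its second, dimmer probe set had a difference of 0.51 (adjusted p = 0.656). The fatty acid receptor Ffar4 was 8.62 to 9.36 in SHS4m livers and between the floor and 5.99 after recovery, a 9.87-fold fall (adjusted p = 0.00121). With Plin5, a lipid droplet coat protein that fell 2.49-fold (adjusted p = 0.00849), it made up the 2 calls among 33 genes of triglyceride synthesis and lipid droplets. The sphingolipid enzymes Acer2, an alkaline ceramidase (log2 -1.15, adjusted p = 0.0044), and St3gal5, which makes the ganglioside GM3 (-1.30, adjusted p = 0.0178), also fell. Another member of their list, Ugcg, which makes glucosylceramide, rose by 1.62 with 1 of 4 probe sets (adjusted p = 0.0139). With St6galnac6, a sialyltransferase (-0.35, adjusted p = 0.00929), 3 of 23 sphingolipid genes fell and 1 rose (median -0.08), against 1.68% and 2.01% of all genes. The call of St3gal5 was lost without SHS4m replicate 66 or recovery replicate 71 (up to 0.0548). The remaining genes among the 15 largest falls, the mitochondrial carrier Slc25a48 (log2 -2.34), Gm11827 (-2.31) and the solute carrier Slc45a3 (-2.31), had adjusted p from 0.0221 to 0.0317. The probe set of Slc25a48 (1448067_at) lost its call without SHS4m replicates 66 to 68 or recovery replicates 71 to 73 (up to 0.066), while its brightest probe set fell by 1.46 (adjusted p = 0.00627). Gm11827 lost its call without SHS4m replicates 66 or 69 or recovery replicate 71 (up to 0.0606), and Slc45a3 without control replicate 1, any 1 SHS4m array or recovery replicate 71 (up to 0.0758). In the fit of 8 arrays Gm11827 and Slc45a3 did not pass (0.0621 and 0.0702).

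**Figure D2:**
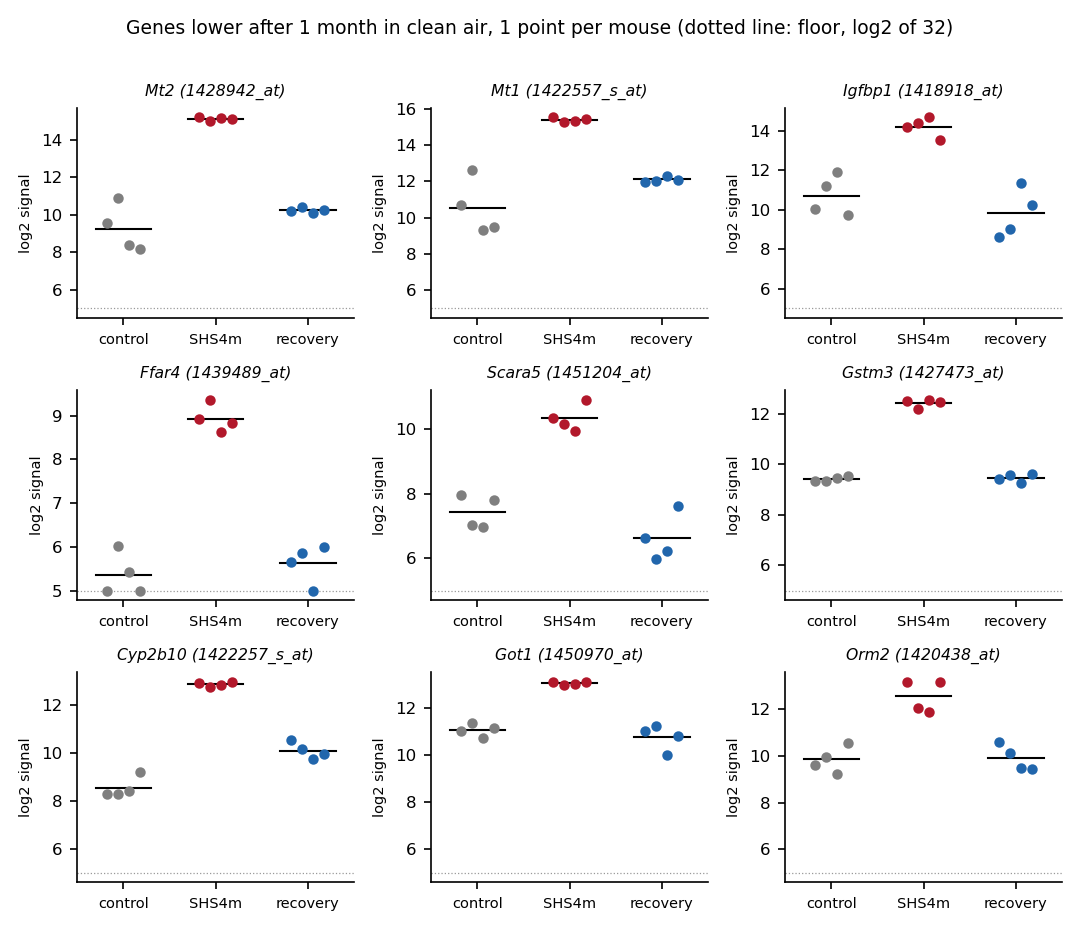
Log2 signal (y axis) of 9 genes called lower after recovery, in control, SHS4m and recovery livers (x axis). Each point is 1 mouse, 4 per group, and the bars are group means. For every gene the 4 recovery points lie below the 4 SHS4m points. For Cyp2b10 the recovery points also lie above all control points.

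Among the largest rises were those of Nrep, Csad and Ccnd1. Nrep (1436736_x_at), a small protein named for regenerating neurons, was 8.15, 8.63, 8.44 and 8.16 in SHS4m livers and 11.40, 11.60, 11.30 and 11.89 after recovery, within the control range of 10.11 to 11.92. It rose 9.2-fold (log2 3.20, standard error 0.335, adjusted p = 0.00221). Csad, which makes the precursor of taurine, was 9.19, 10.20, 10.51 and 10.09 in SHS4m livers and 12.19, 12.85, 12.19 and 12.80 after recovery, a 5.7-fold rise (log2 2.51, adjusted p = 0.00566). Ccnd1, encoding cyclin D1, which moves cells out of rest, was 8.68, 8.21, 8.27 and 8.16 in SHS4m livers and 10.56, 10.69, 10.08 and 10.50 after recovery. All 3 probe sets of Ccnd1 rose (log2 1.96 to 2.13), and the 4.37-fold rise of the brightest had an adjusted p of 0.00102. Ccnd1 was the only gene called among 45 of the cell cycle and DNA replication list, whose median was 0.

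Serpina4-ps1, a serpin pseudogene with close functional relatives, rose by all 3 probe sets (log2 2.75 to 3.23, adjusted p from 0.0117 to 0.0263). The lysosomal nuclease Dnase2a rose 5.57-fold (adjusted p = 0.00418) and the keratin Krt23 4.71-fold (adjusted p = 0.0115). Tcl1b4 rose by 2.01 on the log2 scale (adjusted p = 0.0152) from the floor on 3 of 4 SHS4m arrays. For Wdfy1 the 1 called probe set, also at the floor on 3 SHS4m arrays, rose by 2.42 (adjusted p = 0.00109), while its 4 other probe sets had differences from -0.22 to 0.17 and were not called. Car3, a carbonic anhydrase, rose by 2.97 with a dim probe set (adjusted p = 0.0496) and by 2.0 with another (adjusted p = 0.017), and its brightest probe set had a difference of 0.25 (adjusted p = 0.204). Igha, the constant region of the immunoglobulin A heavy chain, rose by 2.15 with 1 of 3 probe sets (adjusted p = 0.0419). These calls of Car3 (1453588_at) and Igha were each lost without 11 of the 12 arrays, Car3 keeping it only without recovery replicate 71 and Igha only without recovery replicate 70 (up to 0.116 and 0.108), and in the fit of 8 arrays (0.113 and 0.119).

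Of 18 genes of fatty acid synthesis, 5 were called higher after recovery and 13 were not called. Mid1ip1, an activator of acetyl-CoA carboxylase chosen after its values were seen, was 11.01, 10.39, 10.23 and 11.08 in SHS4m livers and 12.94, 12.96, 12.18 and 12.33 after recovery, a 3.8-fold rise (log2 1.93, adjusted p = 0.0101). Fasn, the fatty acid synthase, was 10.86, 10.71, 10.60 and 11.52 in SHS4m livers and 12.65, 12.49, 12.35 and 12.53 after recovery. The groups did not overlap, and SHS4m replicate 69 was the nearest to the recovery livers for Fasn. Fasn rose 3-fold (log2 1.58, adjusted p = 0.0291), and its call was lost without SHS4m replicates 66 to 68 or any 1 recovery array (up to 0.0758). Acaca, the carboxylase that commits acetyl-CoA to fatty acids, rose 1.61-fold (adjusted p = 0.00627), the desaturase Fads2 1.85-fold (adjusted p = 0.00498) and the elongase Elovl2 1.56-fold (adjusted p = 0.00347). The elongase Elovl5 rose 1.57-fold (adjusted p = 0.0272), a call lost without SHS4m replicates 66 to 68 or recovery replicates 71 to 73 (up to 0.0719) and in the fit of 8 arrays (0.0828). No gene of the list fell, 2.01% of all genes were called higher, and the list median was 0.57. Without replicate 72, or without any 1 of SHS4m replicates 66 to 68 or recovery replicates 71 or 73, 3 were called. Srebf1 and Mlxipl, the insulin-driven and glucose-driven factors of the pathway, had differences of 0.59 and 0.77 that did not pass (adjusted p = 0.248 and 0.208).

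Among 9 measured genes of glycolysis and its fed signals 1 rose and 1 fell, with 4 differences above 0, 5 below and a median of -0.11. Pklr, the liver pyruvate kinase at the end of glycolysis, rose 2.27-fold by its brightest probe set (1438711_at, log2 1.18, adjusted p = 0.00823). A dim probe set of Pklr (1421259_at) had the larger difference of 2.36 (adjusted p = 0.0496), which held only without control replicate 4 among the single arrays left out (otherwise up to 0.12) and in the fit of 8 arrays (0.113). Pgk1, an earlier enzyme of glycolysis, fell by 0.26 with its brightest probe set (adjusted p = 0.0288), a call lost without any 1 SHS4m array or recovery replicates 71 to 73 (up to 0.0722) and in the fit of 8 arrays (0.0692). For Tpi1, an isomerase of the same path, 1 of 3 probe sets was called lower (-0.41, adjusted p = 0.00768), and the brightest was not (-0.35, adjusted p = 0.0855). Outside that list, Angptl8, a secreted inhibitor of lipoprotein lipase made after feeding, rose 4.99-fold (log2 2.32, adjusted p = 0.0443), and Aacs, which turns acetoacetate into a substrate for lipid synthesis, 5.63-fold (log2 2.49, adjusted p = 0.0235) by 1 of 3 probe sets. Angptl8 stayed called only when control replicate 2 or SHS4m replicate 67 was the array left out (otherwise up to 0.115), and the call of Aacs was lost without SHS4m replicates 67 or 68 or recovery replicates 70, 71 or 73 (up to 0.0646). In the fit of 8 arrays neither passed (0.0828 and 0.0515). In the cholesterol list 2 of 22 genes rose and 1, Insig2, fell, and without recovery replicate 71 no member was called higher. Stard4, which carries cholesterol between membranes, rose by all 3 probe sets (log2 0.93 to 1.4), the brightest losing its call without recovery replicate 71 (adjusted p 0.0172 with all arrays, 0.0533 without). The synthesis enzymes Idi1, Fdps and Sqle had differences of 1.24, 1.10 and 1.06 that did not pass (adjusted p = 0.0879, 0.341 and 0.284), and the median of the list was 0.48.

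Of 15 hepatocyte transcription factors and 9 genes of the male liver, 3 each were called higher, against 2.01% of all genes. Foxa3 (1431900_a_at) was 9.36, 9.45, 9.61 and 9.73 in SHS4m livers and 11.85, 11.57, 10.93 and 11.07 after recovery. Every recovery liver was above every SHS4m and every control liver, whose highest value was 10.72. Foxa3 rose 3.51-fold (log2 1.81, standard error 0.184, adjusted p = 0.00218) and Cebpa, which maintains metabolic genes of the hepatocyte, 1.74-fold (adjusted p = 0.0114). With Zhx2 (log2 0.44, adjusted p = 0.0359) 3 of the 15 transcription factors rose and 0 fell, with 5 differences below 0 and a median of 0.44, and 2 rose without replicate 72. The call of Zhx2 was lost without control replicates 3 or 4, any 1 SHS4m array or recovery replicates 71 to 73 (up to 0.0942). Hsd3b5, a steroid dehydrogenase found mostly in male liver, was 11.08, 12.17, 11.78 and 12.23 in SHS4m livers and 13.26, 13.76, 14.01 and 13.60 after recovery. It rose 3.58-fold (log2 1.84, adjusted p = 0.00739), to just below the control levels of 13.86 to 14.22 in all recovery livers but replicate 72. Nudt7, a peroxisomal hydrolase of coenzyme A, rose 1.94-fold (adjusted p = 0.00498) and the anion carrier Slco1a1 2.89-fold (adjusted p = 0.0225). Slco1a1 lost its call in the fit of 8 arrays (adjusted p = 0.0936), and also when SHS4m replicate 68, recovery replicate 71 or recovery replicate 72 was left out (up to 0.0632). None of the 9 male-biased genes fell, 3 differences were below 0 and the median was 0.21, and 2 rose without replicate 72. The growth hormone receptor Ghr rose by 0.37 on the log2 scale (adjusted p = 0.00992), a call lost in the fit of 8 arrays (0.0515).

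Of 30 interferon-stimulated genes 4 were called higher after recovery and 26 were not called, while 2.01% of all genes were called higher. Cxcl10 (1418930_at), a chemokine that draws T cells, was 6.29, 6.16, 6.12 and 6.79 in SHS4m livers and 8.08, 7.72, 7.64 and 8.01 after recovery, close to the control levels of 7.74 to 8.74. It was chosen after its values were seen and rose 2.87-fold (log2 1.52, standard error 0.227, adjusted p = 0.00958). Oasl2, an antiviral protein, was at the floor in SHS4m replicates 66 to 68 and 5.37 in replicate 69, and 6.77, 6.35, 6.77 and 6.91 after recovery. All recovery livers were above all SHS4m livers for Oasl2. No gene of the list fell, 7 differences were below 0 and the median was 0.39. The 4 called were Oasl2 (log2 1.61, adjusted p = 0.0199), the GTPases Igtp (1.09, adjusted p = 0.0379) and Iigp1 (0.53, adjusted p = 0.00716), and Ifit3 (0.83, adjusted p = 0.0459). The calls of Oasl2, Igtp and Ifit3 were lost in several fits that left out 1 array. That of Oasl2 was lost without SHS4m replicates 66 to 68 or recovery replicates 72 or 73 (up to 0.0573), that of Igtp without control replicates 2 or 4, any 1 SHS4m array or recovery replicates 71 to 73 (up to 0.0941), and that of Ifit3 without control replicates 1 to 3, SHS4m replicates 67 to 69 or any 1 recovery array (up to 0.108). In the fit of 8 arrays Igtp and Ifit3 did not pass (0.0854 and 0.105). Leaving out single SHS4m or recovery arrays gave 1 or 2 calls in the list other than without replicate 70, and the fit of brighter probe sets only, with a mean log2 of at least 6, gave 8. The GTPase Irgm2, also chosen after its values were seen, rose by 1.67 (adjusted p = 0.0225), a call lost without SHS4m replicates 67 or 69 or recovery replicates 71 to 73 (up to 0.0613) and in the fit of 8 arrays (0.0621). None of the 7 genes of MHC class II presentation was called by limma (4 had an unadjusted p under 0.05, as did 18.2% of all genes). Their median was 0.74, with H2-Eb1 at 1.24 (adjusted p = 0.0911).

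Markers of immune cells were read beside these genes. In the T and NK cell list 0 of 8 were called by limma (2 had an unadjusted p under 0.05), with a median of 0.45, and their summed signal was 397 to 507 in SHS4m livers, 581 to 758 after recovery and 385 to 778 in controls. In the B and plasma cell list 0 of 6 were called (4 had an unadjusted p under 0.05), with a median of 0.65, and the sums were 481 to 595, 613 to 897 and 608 to 990. Among all genes, 18.2% had an unadjusted p under 0.05. The defining markers Cd3e and Cd79a had mean log2 levels of 5.48 and 6.05, close to the floor, and Cd4 of 5.05. Of 10 Kupffer cell and macrophage markers 1, Clec4f, rose (log2 0.46, adjusted p = 0.0442), with sums of 14980 to 18260 in SHS4m livers and 15620 to 21250 after recovery. The part of cell numbers in the rises of interferon-inducible genes was not tested.

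The promoters of 2 of these genes are shown for the interferon-stimulated response element, whose core is read here as GAAA, any 2 bases and GAAA again, on either strand. The windows are the 250 bases before the RefSeq start (GRCm38.p6), 5′ to 3′ along the gene, at chr5:92348890-92349139 (minus strand) for Cxcl10 and chr11:58199306-58199555 (plus strand) for Igtp, with the match in capitals.
Cxcl10: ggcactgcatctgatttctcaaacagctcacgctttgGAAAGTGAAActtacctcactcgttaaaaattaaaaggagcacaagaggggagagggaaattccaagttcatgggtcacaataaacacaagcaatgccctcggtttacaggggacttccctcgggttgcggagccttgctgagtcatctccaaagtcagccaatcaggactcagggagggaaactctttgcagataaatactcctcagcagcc
Igtp: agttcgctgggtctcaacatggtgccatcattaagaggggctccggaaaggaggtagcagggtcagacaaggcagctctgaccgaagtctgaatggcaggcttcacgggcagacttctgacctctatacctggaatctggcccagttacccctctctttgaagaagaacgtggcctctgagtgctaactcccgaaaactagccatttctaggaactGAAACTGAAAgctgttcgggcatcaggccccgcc
The letters occur in 2.98% of the listed promoters. They were also in the windows of Ifit3, Irgm2 and Gbp2b and not in those of Oasl2 and Cxcl9, and Iigp1 has no entry in the table.

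**Figure D3:**
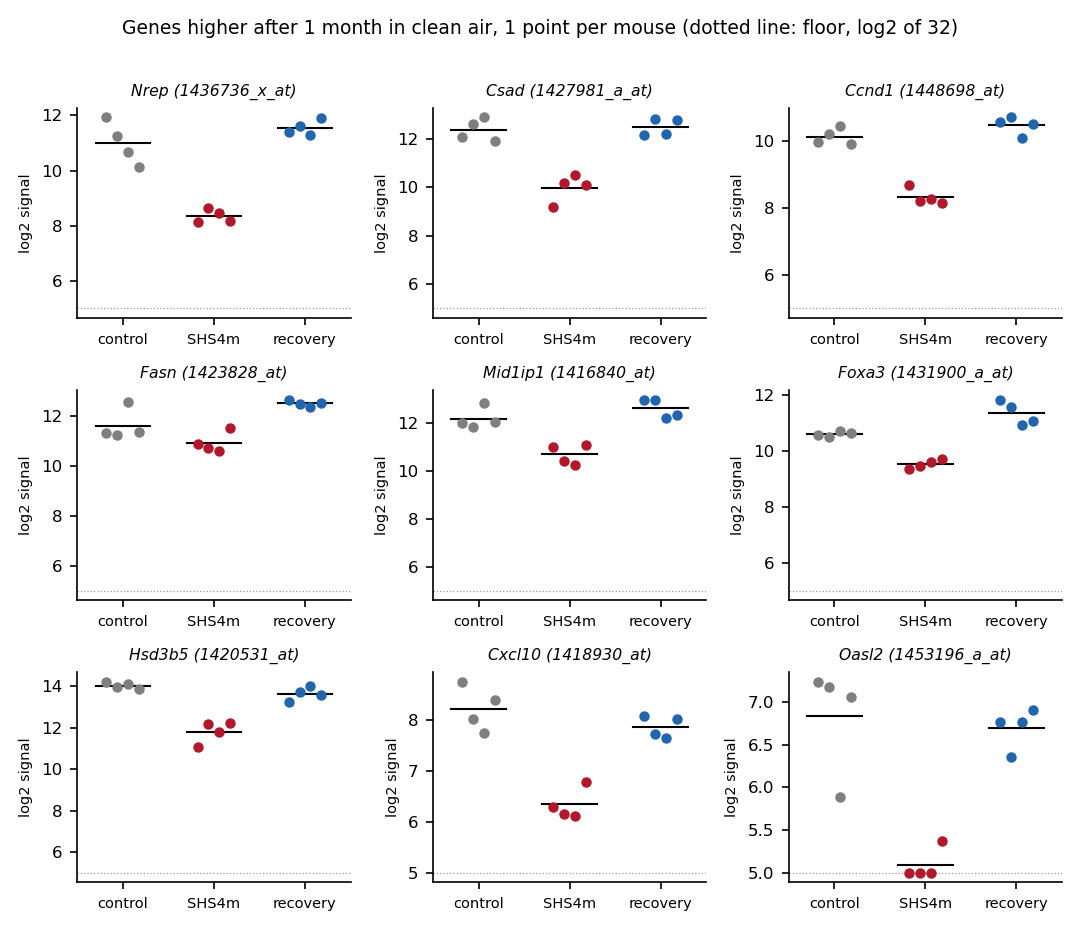
Log2 signal (y axis) of 9 genes called higher after recovery, in control, SHS4m and recovery livers (x axis). Each point is 1 mouse, 4 per group, and the bars are group means. For every gene the 4 recovery points lie above the 4 SHS4m points, and those of Foxa3 lie above all control points too.

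For another set of genes the recovery livers stood apart from both other groups. They are described with the 3 groups side by side and were picked after their values were seen. Gldc, the glycine-cleaving enzyme, was 11.14, 11.18, 11.25 and 11.19 in SHS4m livers and 10.05, 10.03, 10.58 and 10.19 after recovery, with controls at 11.01 to 11.29. The difference from SHS4m was -0.98 (adjusted p = 0.00411) and that from controls -0.91 (adjusted p = 0.00788). Ddc, which decarboxylates aromatic amino acids, was 10.59, 11.24, 11.68 and 10.82 in SHS4m livers and 9.48, 9.49, 9.60 and 9.80 after recovery, with controls at 11.41 to 12.14. It was 2.81-fold below SHS4m (log2 -1.49, adjusted p = 0.0139), and 3 of the 4 SHS4m livers were themselves below all controls (difference -0.80, adjusted p = 0.0981). Insig2, which holds the sterol sensor in the endoplasmic reticulum, was 12.97 to 13.34 in SHS4m livers, 11.66 to 12.45 after recovery and 13.28 to 13.75 in controls. All 3 probe sets of Insig2 fell from SHS4m (log2 -1.31 to -1.18, adjusted p from 0.00869 to 0.0101). The proteasome subunit Psmc1 fell by 0.41 on the log2 scale (adjusted p = 0.00418) with the 4 recovery livers at 11.43 to 11.58 and the other 8 at 11.83 to 12.02, and was the only call among 32 proteasome genes.

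In the upward direction, the recovery livers were above both other groups for Acaca at 10.61 to 10.84, against 9.94 to 10.08 in SHS4m livers and 9.93 to 10.36 in controls. Fads2 was at 12.33 to 12.74 after recovery, against 11.49 to 11.79 and 11.67 to 12.06. Dclk3, a kinase of the doublecortin family, rose 2.98-fold from SHS4m (log2 1.57, adjusted p = 0.00215) and was 1.08 above controls (adjusted p = 0.0122). Acot3, a peroxisomal acyl-CoA thioesterase, was 9.44, 9.16, 8.93 and 8.05 in SHS4m livers and 11.43, 11.31, 11.12 and 11.40 after recovery, a 5.36-fold rise (adjusted p = 0.0356), while controls ran from 7.0 to 9.43. Acot3 stayed called only when control replicate 2 or 3 was the array left out (otherwise up to 0.0843). Its relatives Acot1, by the probe set named for it (1449065_at), and Acot4 rose by 0.72 and 0.77 on the log2 scale (adjusted p = 0.0224 and 0.0459), and with them 5 of 29 genes of fatty acid oxidation and ketone synthesis rose and 1, Ppargc1a, fell (median 0.11). The call of Acot1 was lost without any 1 recovery array (up to 0.057) and that of Acot4 without any array other than SHS4m replicates 67 and 69 (up to 0.113). No gene of this list was called higher without recovery replicates 70, 71 or 72. With all arrays, 2.01% of all genes were called higher. Abcd2, a peroxisomal fatty acid transporter, rose by 2.12 on the log2 scale with 1 of 4 probe sets (adjusted p = 0.0229), a call lost without SHS4m replicates 67 to 69 or recovery replicates 71 to 73 (up to 0.0604).

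**Figure D4:**
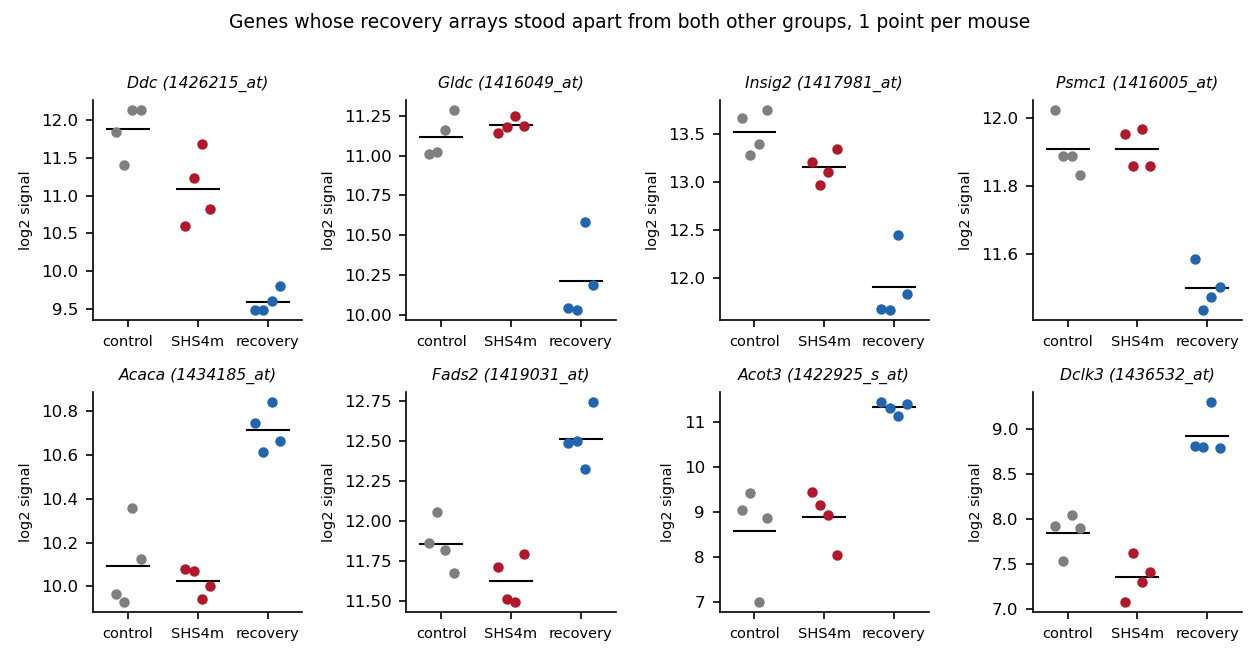
Log2 signal (y axis, a different range in each panel) of 8 genes in control, SHS4m and recovery livers (x axis). Each point is 1 mouse, 4 per group, and the bars are group means. In the upper row the recovery points lie below all points of the other groups, and in the lower row above them.

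Some genes that the study measured or discussed showed no call in this comparison. The elongase Elovl3 was 10.61 to 11.81 in SHS4m livers and 11.15 to 11.73 after recovery (log2 0.13, standard error 0.295, adjusted p = 0.969), and in both groups below the control values of 12.92 to 13.89. Usp2, a clock-controlled deubiquitinase, was 12.35 to 13.14 and 12.28 to 12.79 (log2 -0.19, standard error 0.439, adjusted p = 0.973), against 8.44 to 10.72 in controls. The core clock repressor Per1 differed by 0.18, with a standard error of 0.473 (adjusted p = 0.991). None of 22 clock genes was called by limma, and 1 was called upward in the fit of 8 arrays. An unadjusted p under 0.05 was reached by 3 of them and by 18.2% of all genes. The median of the list was 0.11, and the widest differences were those of Nfil3 (-1.51) and Per3 (1.42). Gys2, the liver glycogen synthase, was 12.46 to 12.93 in SHS4m livers and 12.94 to 13.29 after recovery, without overlap, a difference of 0.45 that did not pass (standard error 0.214, adjusted p = 0.401). Rgs16, a G protein regulator, likewise did not overlap (11.46 to 12.61 against 12.73 to 13.49) and did not pass (log2 0.87, standard error 1.08, adjusted p = 0.825), with controls from the floor to 10.85. The standard errors in this paragraph come from the fit of all 3 groups, so the spread of the controls enters them. A missing call here does not show that the levels were equal. The phosphatidate phosphatase Lpin1 had a difference of -0.57 (adjusted p = 0.732) with recovery replicates 72 and 73 at 11.28 and 11.95 and the other two at 13.50 and 13.15. For the hepatocyte factor Onecut1 the difference was 1.28, with a standard error of 0.614 (adjusted p = 0.405). By RT-qPCR the study reported Rgs16 and Lpin1 further above controls after recovery than at the end of exposure, and Onecut1 closer to controls. The array differences of Rgs16 and Onecut1 had the same direction, and that of Lpin1 the opposite one. None of these differences passed, so their directions are no test of the RT-qPCR results, which came from more samples per group. The study's own array lists also give Lpin1 a smaller rise over controls after recovery than at the end of exposure.

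Across the 44 gene lists, whose 921 measured genes were each read by the brightest probe set, calls pointed 1 way in some lists and both ways in others. Lists with calls in 1 direction only, downward, included the NRF2, CAR and PXR, aryl hydrocarbon receptor, gluconeogenesis, amino acid, glucocorticoid and acute phase lists described above. Some lists share called members, among them Got1, Gpt and Lcn2, so their counts are not separate results. Fatty acid synthesis, interferon-stimulated genes, hepatocyte factors and male-biased genes had upward calls only. None of 24 ribosomal proteins and none of 11 heme genes was called by limma (4 of each had an unadjusted p under 0.05, as did 18.2% of all genes). Among 38 respiratory chain subunits 1 was called, Ndufb9, with a difference of 0.15. Fabp4, a fatty acid binding protein of adipocytes and endothelium, fell by 1.67 on the log2 scale by its brightest probe set (adjusted p = 0.00524), whereas the defining adipocyte transcripts Adipoq and Lep were at or near the floor (mean log2 5.19 and 5). The summed signal of the 3 adipocyte markers was 1626 to 2276 in SHS4m livers, 478 to 819 after recovery and 749 to 1070 in controls. Most of this sum was Fabp4, so it restates the fall of Fabp4. Slc4a1, the anion exchanger of red cells, fell by 1.29 (adjusted p = 0.0122), and the other 2 erythroid markers were not called.

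**Figure D5:**
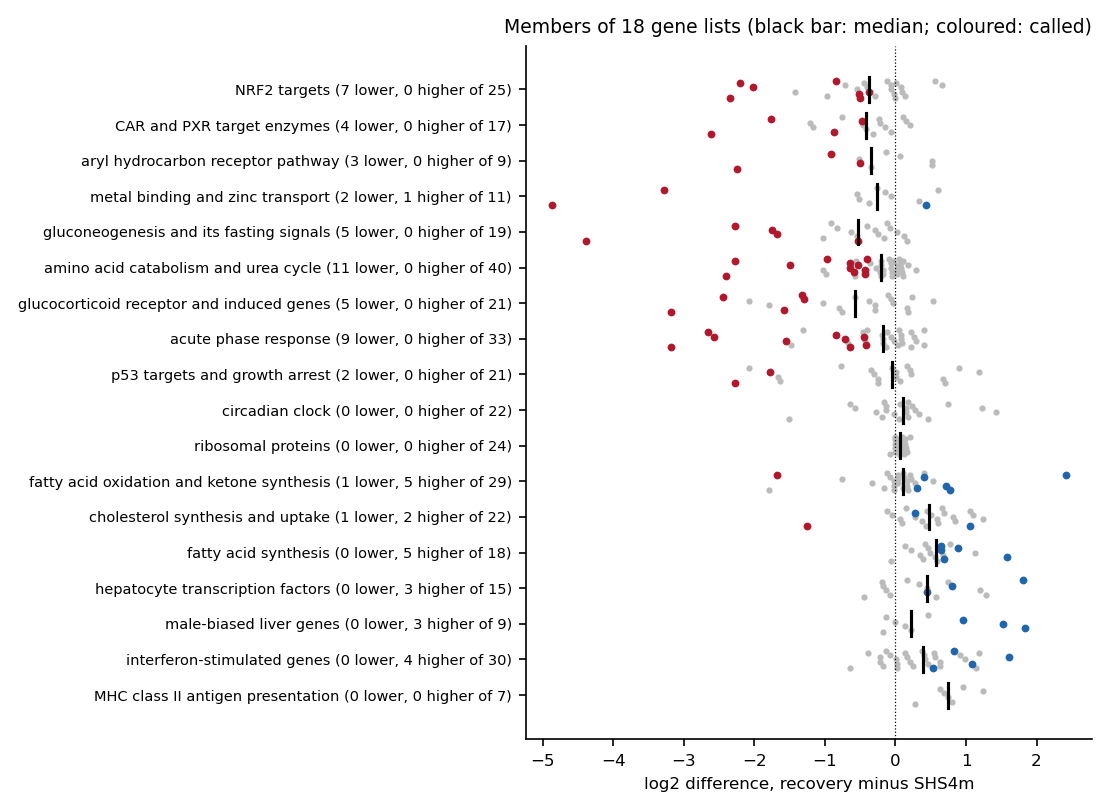
Log2 difference between recovery and SHS4m livers (x axis) for each measured member of 18 of the 44 gene lists (rows). Points are genes read by their brightest probe set, red where called lower, blue where called higher and grey where not called, and the black bars are list medians. The lists from NRF2 targets to acute phase response have calls to the left only, other than 1 in the metal list, and the lists of fatty acid synthesis to interferon-stimulated genes to the right only.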

How the data were processed

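Liver RNA of 12 mice was measured, 1 array per mouse, so replicates are separate animals. Per the labels, the deposited intensity values were made with Affymetrix Expression Console. They are on a linear scale with the trimmed mean of every array at 500, and how probes were summarised into a probe set value is not stated there. Intensities below 32 were raised to 32, log2 was taken, and 64 control probe sets (AFFX) were left out. A model of the 3 groups was fitted with limma 3.58.1 in R 4.3.3 on all 12 arrays, with Benjamini-Hochberg adjustment over 45037 probe sets. Of these, 34945 name 1 gene, 932 several and 9160 none here, and 34741 symbols were matched by gene ID. For gene lists each gene was read by its brightest probe set, and no set test was run. The named genes were the 15 largest falls and rises of at least 2-fold without overlap, up to 5 called members per list, the member with the largest difference where none was called, and 8 genes of the study. Others are said to have been picked after their values were seen. The comparison, its members and the lists were chosen with earlier results of these data known. The fit was tested on simulated data. Alternatives were the fit of the 8 SHS arrays, other floors, quantile normalization, median centring, a filter on dim probe sets, a trended prior, array weights and leaving out each array. Precision is limited by the 4 arrays per group. Promoter windows are from RefSeq (GRCm38.p6).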

Additional observations from a re-analysis of the deposited data

Results flagged for a closer look

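In groups of 4, a value was marked when its gap to the nearest other value, divided by the range of the group, passed Dixon's critical value for that group size. Of 372 groups tested 28 were marked, and chance flags about 1 in 20 groups of independent normal values. Where only 1 of 4 values lies above the floor, the ratio is 1.0 whatever that value is. The marks at 1.0 of Wdfy1, Tcl1b4, Oasl2 and Sult1e1 are of this kind, so they show the floor and no outlier, and the rate does not cover them. Among recovery livers, replicate 72 was the highest for the actin 3' to 5' ratio (gap over range 0.946) and for Dclk3 (0.946), replicate 70 the lowest for Stard4 (0.938), and replicate 73 the highest for Ifit3 (0.933) and the lowest for Il1r1 (0.831). Recovery replicate 71 was the only value above the floor in its group for Sult1e1 (1.0), as control replicate 1 was among controls (1.0). Among SHS4m livers, replicate 69 was the only value above the floor for Tcl1b4 and Oasl2 (1.0 each) and the lowest for Nfil3 (0.85), and it was the highest for Lpin1 (0.885). Replicate 68 was the only value above the floor for Wdfy1 (1.0). Replicate 67 was the lowest for Gstm2 (0.86) and the highest for Srebf1 (0.951). Replicate 66 was the highest for Krt23 (0.85) and Cyp3a11 (0.904).

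Among controls, replicate 3 was the lowest for Lcn2 (0.909), Cyp1a2 (0.852) and Oasl2 (0.867) and the highest for Wdfy1 (0.881), Fasn (0.917) and Fdps (0.899). Replicate 4 was the highest for Cyp2b10 by both of the probe sets read (0.879 and 0.865), and replicate 2 the highest for Cebpd (0.851) and Trp53inp1 (0.873) and the lowest for St6galnac6 (0.944). The actin ratio of the controls was also marked (0.885), with replicate 4 the lowest.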

How the results depend on the processing

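The 1142 probe sets called by limma were 680 in the fit of the 8 SHS arrays, 642 with a floor at each array's 25th percentile and 664 with no floor and log2 of signal plus 32. Leaving out single arrays gave 584 to 1016. Quantile normalization, median centring, the filter on dim probe sets, a trended prior and array weights gave 781 to 1392. At the study's threshold the 767 became 1231 with the 25th percentile floor, 516 with no floor and 749 to 875 without single arrays. The 350 higher and 417 lower became 440 and 396 without SHS4m replicate 66, and 445 and 430 without replicate 69. The log2 actin ratio difference of 0.25 ranged from -0.02 to 0.35 without single arrays. Of 100 called probe sets of named genes, 74 remained called in the fit of 8 arrays, 68 without recovery replicate 71, 70 without recovery replicate 72 and 95 under quantile normalization, and none changed direction under the alternatives run. No paired analysis was possible because the groups share no replicate numbers. Signals below the floor, 29.9 to 33.5% of the values of an array, cannot show a difference. The causes of these changes were not tested.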
